A study of Mus musculus with 3 samples.

Results

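The v3 and v1 peak lists of mouse whole brain were set against each other peak by peak, by every peak of both libraries: 622754 peaks in v1 and 512023 in v3, 1134777 of the 1985768 peaks in the series. The names v1 and v3 stand for sciATACv1 and sciATACv3, 2 versions of a single-cell combinatorial indexed ATAC-seq preparation in nanowells, each applied to whole-brain nuclei of C57BL6 mice. By the protocols in the labels, nuclei of both libraries were dounced from minced brain, tagmented with barcoded complexes in 96 wells, pooled, and spread over 5184 nanowells for the indexed PCR. No treatment or genotype sets the libraries apart, and what differs between the versions, the age, sex and number of animals and the number of nuclei are not stated in the sources used here. With 1 library per version there is no measure of replicate spread. No test was run, and every comparison describes these libraries. The third list of the series, v2 with 850991 peaks, served only as an outside reference.

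ATAC-seq reads out where the transposase Tn5 can insert adapters into DNA, which in intact nuclei is mostly where nucleosomes are displaced. Such regions include gene promoters, which tend to be open in many cell types when they are rich in CpG dinucleotides, and enhancers, which tend to be open in particular cell types and can lie far from any gene. Whole brain mixes neurons, astrocytes, oligodendrocytes and their precursors, microglia and vascular cells, so a peak found in such a mixture can come from a small share of the nuclei. In a bulk list, fewer nuclei of a type and less open chromatin per nucleus cannot be told apart.

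The promoters of marker genes show what agreement and disagreement between the lists look like at single sites. The marker genes came from 16 lists of cell types, tissues and immediate early genes, and 129 of their genes had a promoter window to examine, defined as 250 bases before to 50 after the outermost listed gene start. A peak of each list lay over the window for 89 of them, in v1 only for 6, in v3 only for 9 and in neither for 25. The sequences below are the 250 bases before the start from RefSeq (GRCm38.p6), 5′ to 3′ on the strand of the gene, with CpG dinucleotides in capitals, for genes whose 250 bases lie outside any annotated gene. They are the genes with the widest covering peaks in each class. The first 3 had only a v1 peak over the window, although at Fga and Apoa1 a v3 peak lay within 1 kb of the start. Fga, a fibrinogen chain gene of liver (chr3:83025903-83026152, plus strand), had a v1 peak of 1295 bp. Gabra6, the GABA-A receptor subunit gene of cerebellar granule cells (chr11:42321073-42321322, minus strand), had one of 569 bp, and Apoa1, the main apolipoprotein gene of HDL (chr9:46228380-46228629, plus strand), one of 500 bp.
Fga: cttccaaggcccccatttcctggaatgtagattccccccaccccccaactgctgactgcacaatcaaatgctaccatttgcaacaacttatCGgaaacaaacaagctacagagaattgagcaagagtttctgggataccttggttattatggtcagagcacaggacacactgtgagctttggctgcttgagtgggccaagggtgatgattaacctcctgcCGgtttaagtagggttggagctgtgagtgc
Gabra6: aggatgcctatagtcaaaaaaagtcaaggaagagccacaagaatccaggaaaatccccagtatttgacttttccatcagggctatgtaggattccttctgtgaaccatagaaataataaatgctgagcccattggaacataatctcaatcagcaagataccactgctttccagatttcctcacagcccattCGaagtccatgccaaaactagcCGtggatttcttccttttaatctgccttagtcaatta
Apoa1: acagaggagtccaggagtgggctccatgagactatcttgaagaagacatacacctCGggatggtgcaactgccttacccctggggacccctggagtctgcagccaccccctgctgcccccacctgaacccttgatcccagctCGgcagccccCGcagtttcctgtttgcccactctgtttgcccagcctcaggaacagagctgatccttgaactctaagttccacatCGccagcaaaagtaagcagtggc

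The next 3 had only a v3 peak over the window, although at Tal1 a v1 peak lay within 1 kb of the start. A v2 peak covered the windows of Fga, Apoa1, Tal1 and Myh1, and none covered those of Gabra6 and Ctss. Tal1, a transcription factor gene of blood and of some midbrain neurons (chr4:115056176-115056425, plus strand), had a v3 peak of 2725 bp. Myh1, a fast myosin heavy chain gene of skeletal muscle (chr11:67199852-67200101, plus strand), had one of 1676 bp, and Ctss, the cathepsin S gene that microglia express (chr3:95526536-95526785, plus strand), one of 956 bp.
Tal1: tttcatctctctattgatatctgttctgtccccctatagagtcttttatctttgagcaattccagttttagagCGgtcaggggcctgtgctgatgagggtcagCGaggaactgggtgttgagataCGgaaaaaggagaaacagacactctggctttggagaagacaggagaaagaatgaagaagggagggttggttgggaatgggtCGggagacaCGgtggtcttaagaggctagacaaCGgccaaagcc
Myh1: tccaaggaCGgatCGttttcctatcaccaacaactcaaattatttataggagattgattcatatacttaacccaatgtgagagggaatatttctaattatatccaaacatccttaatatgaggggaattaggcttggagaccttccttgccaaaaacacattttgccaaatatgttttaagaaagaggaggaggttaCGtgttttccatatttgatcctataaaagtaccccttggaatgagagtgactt
Ctss: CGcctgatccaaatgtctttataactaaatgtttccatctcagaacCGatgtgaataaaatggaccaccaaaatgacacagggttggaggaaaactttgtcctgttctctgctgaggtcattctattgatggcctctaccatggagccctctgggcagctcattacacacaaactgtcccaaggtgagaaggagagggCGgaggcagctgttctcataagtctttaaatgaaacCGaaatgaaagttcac

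The last 3 had the widest pairs of peaks. Tac1, the substance P precursor gene of striatal direct-pathway neurons (chr6:7554811-7555060, plus strand), had peaks of 3068 bp in v1 and 2874 bp in v3. Otx2, a homeobox gene of midbrain and choroid plexus (chr14:48667645-48667894, minus strand), had 3048 and 2585 bp, and Drd1, the D1 dopamine receptor gene (chr13:54055659-54055908, minus strand), had 3073 and 2457 bp. At Otx2 the peaks of the 2 libraries lay over the same window without touching: the v1 peak ended at 48667810 and the v3 peak began at 48667858.
Tac1: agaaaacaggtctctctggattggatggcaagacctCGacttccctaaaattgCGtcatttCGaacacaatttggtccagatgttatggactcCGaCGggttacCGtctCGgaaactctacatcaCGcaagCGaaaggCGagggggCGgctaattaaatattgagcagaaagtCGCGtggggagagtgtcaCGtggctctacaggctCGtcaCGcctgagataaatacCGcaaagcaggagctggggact
Otx2: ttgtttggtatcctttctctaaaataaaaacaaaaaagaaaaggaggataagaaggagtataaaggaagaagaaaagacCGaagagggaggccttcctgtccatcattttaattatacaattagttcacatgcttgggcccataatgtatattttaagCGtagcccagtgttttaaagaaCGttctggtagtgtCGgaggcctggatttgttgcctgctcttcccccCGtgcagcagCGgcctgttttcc
Drd1: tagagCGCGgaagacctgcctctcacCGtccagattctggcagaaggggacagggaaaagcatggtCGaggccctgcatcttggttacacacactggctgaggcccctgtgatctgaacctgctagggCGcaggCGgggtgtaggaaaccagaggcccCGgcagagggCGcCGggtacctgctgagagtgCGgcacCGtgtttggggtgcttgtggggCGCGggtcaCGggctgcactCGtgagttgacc
The printed stretches held 2, 2 and 4 CpGs at Fga, Gabra6 and Apoa1, 6, 3 and 4 at Tal1, Myh1 and Ctss, and 17, 6 and 15 at Tac1, Otx2 and Drd1. The 6 promoters covered in 1 list held 2 to 6 CpGs.

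Both lists had peaks at the starts of nearly all brain cell marker genes. Of the 133 genes in the 11 lists of brain cell types, 90 had a listed start, and a peak lay within 1 kb of it at 85 in v1 (94.4%, exact Clopper-Pearson 95% interval 87.5 to 98.2) and at 86 in v3 (95.6%, 89.0 to 98.8). Over all 17274 protein-coding genes with a listed start the shares were 77% in v1 and 76.6% in v3. Of the 30 genes with a listed start among lymphocyte, erythroid, liver and muscle genes, 15 had a peak there in v1 and 14 in v3. Neither list had one at Alb, the albumin gene, Gata1, the erythroid transcription factor gene, or Cd3e, a T cell receptor component gene. Among brain genes neither list had one at Pcp2, a Purkinje cell gene, or Aif1, the microglial gene for Iba1. All intervals here cover counting error only, and neighbouring peaks are not independent.

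The v3 list held fewer peaks and more wide ones. It had 0.822 times as many peaks as v1, yet covered 490 Mb against 454 Mb. At the shortest width of 500 bp, v3 had 215929 peaks against 372347 in v1, a ratio of 0.58. Above 1000 and up to 1500 bp the ratio was 1.27, up to 2500 bp it was 2.13, and beyond that it was 5.21, with 15206 v3 peaks against 2920. The order of the lists by number therefore turned at a width of about 1 kb. The upper end of the widths lay higher throughout, with a 90th percentile of 1811 bp in v3 and 1255 bp in v1 and a 99th percentile of 3093 and 2207 bp.

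Wider peaks were shared far more often than short ones. Of the 500 bp peaks of v1, 59.4% (59.2 to 59.5) met a v3 peak by at least 1 bp, against 82.1% of those above 500 and up to 750 bp, 92.5% of those above 1000 and up to 1500 bp and 99.1% (98.7 to 99.4) of those above 2500 bp. The v3 peaks followed the same course against v1, from 57.3% (57.1 to 57.5) at 500 bp to 99.3% (99.1 to 99.4) above 2500 bp. A wider peak also has more bases with which to meet another peak. Over all widths, 182334 v1 peaks (29.3%) and 127140 v3 peaks (24.8%) had no counterpart, and 83.0% of the former and 72.6% of the latter were 500 bp wide.

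**Figure D1:**
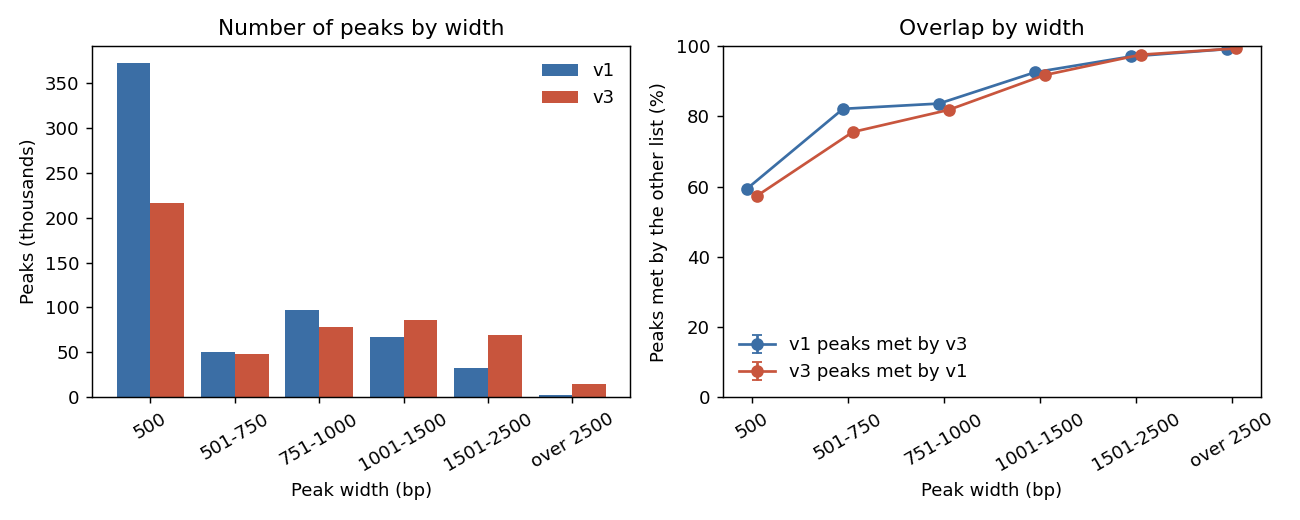
Left, number of peaks (y axis from 0) by peak width in bp for v1 and v3. Right, percentage of the peaks of each width that met a peak of the other list, with exact 95% intervals; v1 has more peaks at 500 bp, v3 has more above 1000 bp, and both lists reach over 99% above 2500 bp.

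Part of the v3 peaks spanned places that v1 listed as separate peaks. A v3 peak met 2 or more v1 peaks in 75823 cases (14.8%, 14.7 to 14.9) and 3 or more in 12528 (2.45%). The reverse, a v1 peak meeting 2 or more v3 peaks, held for 33301 (5.35%, 5.29 to 5.40). Of the v1 peaks that met v3, 37.5% lay wholly inside 1 v3 peak, while 10.6% of the v3 peaks that met v1 lay wholly inside 1 v1 peak. Among the 261317 pairs in which each peak met no other, v3 was the wider in 49.6%, v1 in 20.7%, and the widths were equal in 29.6%. Their midpoints lay a median of 85 bp apart.

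Bases found in only 1 list had different sources. The lists shared 307 Mb. Of the 147 Mb covered by v1 alone, 70.4% lay in peaks with no v3 counterpart. Of the 183 Mb covered by v3 alone, 42.8% lay in peaks with no v1 counterpart. The remainder lay in peaks that met v1, at their flanks or between v1 peaks that they joined. Of the v3 peaks without a counterpart, 35.9% lay within 500 bp of a v1 peak (median gap 869 bp). Of such v1 peaks, 27.3% lay that near a v3 peak (median gap 1352 bp). Within 5 kb these shares were 90.1% and 77.0%. No share was computed for random sites, and v1 holds more peaks to lie near. These gaps therefore do not show closeness beyond the density of the lists.

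The v2 list held more of the unmatched v1 peaks than of the unmatched v3 peaks. Of the v1 peaks without a v3 counterpart, 77.9% (77.7 to 78.0) met a v2 peak, against 56.0% (55.7 to 56.3) of the v3 peaks without a v1 counterpart. At 500 bp the shares were 75.3% and 50.3%, and above 1000 bp they were 90.6% and 82.1%. Of the peaks that v1 and v3 shared, 96.2% of those of v1 and 96.4% of those of v3 met v2. The widest v1 peak without a v3 counterpart spanned 3366 bp on chromosome 16 (27782850 to 27786215, mm10), 330632 bp from the nearest protein-coding gene, Ccdc50. The next were 3217 bp on chromosome 18 (13919461 to 13922677) in Zfp521, a zinc finger transcription factor gene, and 3210 bp on chromosome 6 (42998677 to 43001886), outside any gene. On the v3 side they were 4945 bp on chromosome 6 (118396966 to 118401910) over Bms1, a ribosome assembly gene, 4411 bp on chromosome 14 (61023949 to 61028359) over Tnfrsf19, a TNF receptor family gene, and 3957 bp on chromosome 12 (107259767 to 107263723), outside any gene. All 6 met a v2 peak, so none was found in 1 library of the series alone.

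At gene starts the lists nearly coincided in which genes they marked. A peak lay within 1 kb of a start in both lists at 12807 of 17274 genes (74.1%), in v1 only at 488 (2.83%), in v3 only at 433 (2.51%) and in neither at 3546 (20.5%). Of the 488 and 433 genes, 376 (77.0%) and 324 (74.8%) had such a peak in v2. Marker genes with a start peak in v1 only were Gabra6 and Tmem212, an ependymal gene, and in v3 only Ctss, Dnah5, an axonemal dynein gene of motile cilia, and Ly6c1, a surface protein gene of brain endothelium.

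What differed at gene starts was the extent of the peaks. At 50 bp before the start, 69.2% of genes were covered in v1 and 70.0% in v3. At 650 bp before the start the values were 38.8% and 50.1%, and at 850 bp into the gene they were 38.3% and 49.1%. Peaks spanning a start had a median width of 1335 bp in v1 (12472 peaks) and 1736 bp in v3 (12530 peaks), and 97.2% and 97.5% of them met the other list. Coverage reached further into the gene than before it in both lists. At 1250 bp before the start it was 14.6% in v1 and 17.9% in v3. At 1250 bp into the gene it was 24.5% and 31.7%.

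**Figure D2:**
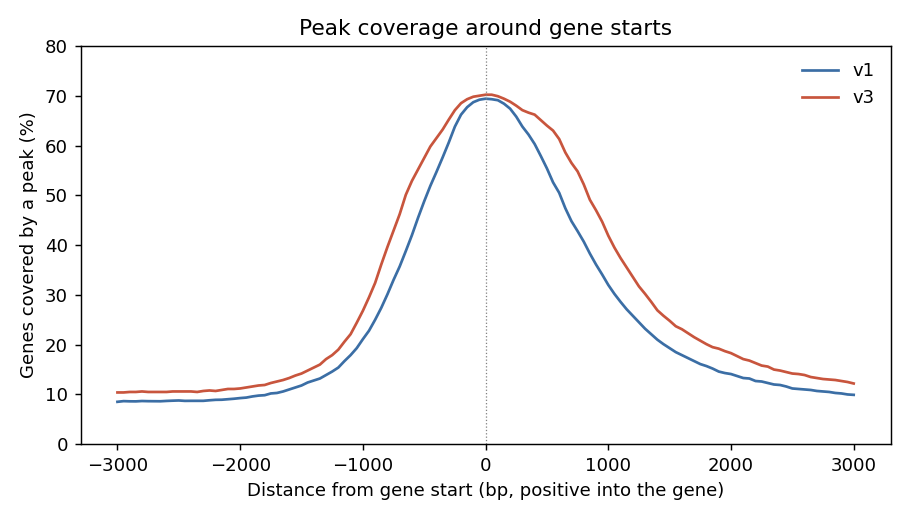
Percentage of 17274 protein-coding genes covered by a peak (y axis) at each distance from the first listed start (x axis, bp, positive into the gene), in steps of 50 bp, for v1 and v3. The lines meet near the start, at about 70%, and v3 lies above v1 on both sides.

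CpG content separated the genes marked in both lists from the others, and did not separate v1 only from v3 only. Windows of 300 bases around 21020 distinct starts of protein-coding genes held a median of 13 CpGs. Windows with a peak within 1 kb in both lists held a median of 19 (quartiles 9 and 28), those of v1 only 3 (1 and 6), those of v3 only 3 (2 and 6), and those of neither 2 (1 and 4). By CpG class, a peak lay near 99.3% (v1) and 99.2% (v3) of the windows with over 20 CpGs, against 29.7% (28.2 to 31.2) and 27.9% (26.5 to 29.4) of those with 2 or fewer. Between the extremes the lists again gave near-equal shares, 59.1% and 58.8% at 3 to 5 CpGs and 79.7% and 80.1% at 6 to 10.

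Of 10 motifs searched on both strands, some followed the same division and some did not. The GC box letters GGGCGG, on either strand, were in 59.1% of the windows of both lists, 12.8% of v1 only, 16.8% of v3 only and 6.71% of neither, against 46.6% of all windows. The TATA box letters TATAAA, on either strand, were in 7.71%, 26.6%, 21.1% and 28.9%, against 12.7% of all. The ETS letters CCGGAAGT were in 6.64%, 0.493%, 0.911% and 0.845%, against 5.2% of all, and the AP-1 letters TGANTCA in 5.36%, 10.3%, 11.5% and 12.5%, against 7.04%. The CCAAT box letters CCAAT showed little difference, at 37%, 39.7%, 37.7% and 44.1%, against 38.5% of all. The E-box letters CACGTG were in 9.28%, 6.08%, 6.56% and 3.01%, against 7.91%, and the CTCF core letters CCACNAGG in 5.56%, 3.45%, 4.37% and 3.70%, against 5.11%. The CRE letters TGACGTCA were in 2.78%, 0.985%, 0.546% and 0.621%, against 2.26%. A palindromic NRF1 motif was in 1.72%, 0.328%, 0.182% and 0.174%, against 1.34%, and a MEF2 motif in 0.145%, 0.493%, 0.182% and 0.0994%, against 0.147%. The v1 only and v3 only classes held 609 and 549 windows, so the shares of the rarer motifs there rest on few windows. GC box, ETS, E-box, CRE and NRF1 letters each hold a CpG, so their shares are not separate from the CpG counts. A match of letters is no evidence of binding.

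The v3 list held a larger share of its peaks near genes, and v1 a larger share over 200 kb from any start. A share ratio is used from here on: the peaks of a class as a share of all v3 peaks, divided by the same share in v1. At a ratio of 1 the v3 list holds 0.822 times as many peaks. Chromosome 18 had no listed starts and was left out here. Of the other peaks, 3.20% in v1 and 3.52% in v3 lay within 1 kb of a start (share ratio 1.10, exact conditional 95% interval 1.08 to 1.12). The ratio was 1.13 (1.12 to 1.14) at 1 to 10 kb, 1.08 at 10 to 50 kb and 0.999 (0.993 to 1.01) at 50 to 200 kb. Over 200 kb from a start it was 0.852 (0.846 to 0.859), with 164918 peaks in v1 and 115849 in v3. Genes without a listed start enter here as distance, so these classes hold some starts that were not counted. Distance ran from the nearest edge of a peak. A wider peak therefore comes within 1 kb of a start more readily, and no adjustment for width was made.

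The far v1 peaks were those that v3 met least. Over 200 kb from a start, 58.7% of v1 peaks met v3, against 92.8% within 1 kb and 77.1% at 10 to 50 kb. The v3 peaks showed no such course beyond 1 kb: 71.6% met v1 at 1 to 10 kb, 74.4% at 10 to 50 kb and 74.2% over 200 kb. Of the v1 peaks without a v3 counterpart, 38.9% lay over 200 kb from a start, against 22.8% of those with one, and the median distances were 120094 and 57412 bp. Of the v3 peaks without a v1 counterpart 24.3% lay that far, against 23.2% of those with one, at median distances of 57935 and 58070 bp.

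Unmatched v1 peaks also lay outside genes more often than unmatched v3 peaks of the same width. Of the 500 bp peaks without a counterpart, 54.9% (54.6 to 55.1) of v1 and 64.3% (64.0 to 64.6) of v3 had their midpoint in a gene span. Of the 500 bp peaks with a counterpart these were 71.6% and 71.2%. Among all peaks wider than 500 bp, 72.0% lay in genes in both lists.

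Along the chromosomes the deficit of v3 was concentrated in stretches with few genes. The chromosomes were divided into bins of 1 Mb, and 2388 bins held at least 100 peaks summed over v1 and v3. With a call at 1.5-fold in share ratio, 323 bins (13.5%) had a lower share in v3 and 49 (2.05%) a higher one. With only peaks wider than 500 bp, 115 bins were called lower and 69 higher of 2006. Of the 187 bins without a protein-coding gene, 124 (66.3%) were called lower and 4 (2.14%) higher, with a median ratio of 0.547 (quartiles 0.371 and 0.733). Among the wider peaks 39 gene-free bins remained above the minimum, with a median of 0.846. Of the 2201 bins with a gene, 199 (9.04%) were called lower and 45 (2.04%) higher, with a median of 1.05. The medians were 0.915 in bins with 1 to 4 genes, 1.06 with 5 to 14, 1.15 with 15 to 29 and 1.11 with 30 or more.

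**Figure D3:**
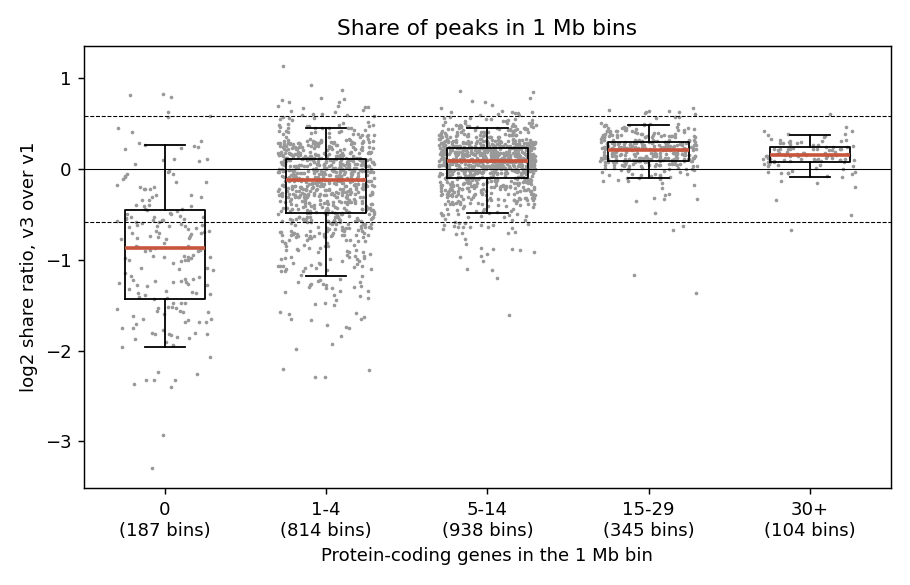
Each grey point is a 1 Mb bin with at least 100 peaks summed over v1 and v3, placed by the number of protein-coding genes it touches (x axis) and its log2 share ratio of v3 over v1 (y axis). Boxes give quartiles and whiskers the 5th and 95th percentiles, dashed lines mark 1.5-fold; the median of the 187 bins without a gene is a ratio of 0.547 and that of the 345 bins with 15 to 29 genes is 1.15.

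Counted without the minimum of 100 peaks, the 220 gene-free bins with any v1 or v3 peak held 27836 peaks in v1 and 13494 in v3, a share ratio of 0.59 (0.578 to 0.602). These peaks covered 7.87% of the bases of the bins in v1 and 4.85% in v3. In bins with 15 to 29 genes the order was reversed, with 20.3% in v1 and 24.9% in v3. The v2 list held 42031 peaks in the gene-free bins, a share ratio of 1.10 over v1. Of the v1 peaks there, 35.6% (35.1 to 36.2) met v3, against 80.2% in bins with 15 to 29 genes, and 75.6% of those that did not meet v3 met v2. Of the v3 peaks there, 68.0% met v1.

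Short peaks carried this deficit, with 20450 peaks of 500 bp in gene-free bins in v1 and 7074 in v3. Within each width class, taken as a share of the peaks of that width, v3 was lower in gene-free bins. Of all 500 bp peaks, 5.49% lay in gene-free bins in v1 and 3.28% in v3 (ratio 0.596, 0.581 to 0.613). Above 500 and up to 1000 bp the shares were 3.54% and 2.78% (0.784, 0.751 to 0.818), and above 1000 bp 2.10% and 1.72% (0.819, 0.774 to 0.866). Above 1000 bp the v3 list held more peaks in these bins by number, 2915 against 2148. As a share of all peaks of the list, those wide peaks were therefore more frequent in v3.

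The bins with the lowest ratios held no protein-coding gene. On chromosome 8, 52000001 to 53000000, v1 had 214 peaks, v2 162 and v3 18 (share ratio of v3 over v1 0.102, 0.0595 to 0.166). On chromosome 1, 49000001 to 50000000, the numbers were 111, 132 and 12, and on chromosome 14, 82000001 to 83000000, they were 141, 181 and 22. In each of these bins the v3 list was low against both other lists. Bins among those with the highest ratios held few genes as well. The bin of Mgmt, a DNA repair gene, on chromosome 7, 136000001 to 137000000, held 70 v1, 86 v2 and 109 v3 peaks (1.89, 1.39 to 2.59), and that of Tbx3 and Tbx5, T-box transcription factor genes, on chromosome 5, 119000001 to 120000000, had 83, 117 and 124. These bins were picked as the extremes of 2388, so their ratios are likely to lie farther from 1 than in a new library.

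Whole chromosomes differed in the same sense. The share ratio ran from 0.886 (0.873 to 0.900) on chromosome 3 and 0.915 on chromosome 15 to 1.14 on chromosome 11, 1.15 on chromosome 7 and 1.17 (1.15 to 1.19) on chromosome 9. Over the 19 autosomes it had a Spearman's rho of 0.75 with the number of protein-coding genes per Mb, as a description over chromosomes that come from the same 2 libraries. Of v1 peaks, 64.8% met v3 on chromosome 3 and 79.2% on chromosome 11. The X chromosome, with 5.76 protein-coding genes per Mb, had a ratio of 1.10, and its v3 peaks had a median width of 500 bp, against 716 to 747 bp on the autosomes.

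Kinds of genes differed in how often they held a peak. A peak lay in 83.5% of protein-coding gene spans in v1 and 82.7% in v3, and in 85.0% and 84.6% of long noncoding RNA genes. Of 9852 pseudogenes, 26.4% (25.5 to 27.3) held a v1 peak and 21.2% (20.4 to 22.0) a v3 peak. Of 1340 small nucleolar RNA genes, 41.0% (38.4 to 43.7) and 27.4% (25 to 29.9) did, with 250 in v1 only and 67 in v3 only. Transfer RNA genes, at 71.8% and 70.6%, and microRNA genes, at 43.3% and 42.8%, had near-equal shares.

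Protein-coding genes were compared by the peaks in their window, taken as the span plus 5 kb at either end. Of 21631 genes, 13828 held at least 10 peaks summed over v1 and v3, with medians of 14 and 13 peaks and a median share ratio of 1.06. The ratio was at least 1.5 at 1845 genes (13.3%) and at most 1/1.5 at 848 (6.13%). With only peaks wider than 500 bp the median was 0.988, and 1194 genes (12.8%) were called higher and 820 (8.79%) lower of 9331. Long genes differed from this background. Of the 553 such genes over 300 kb, 77 (13.9%) were called lower and 21 (3.80%) higher, with a median of 1. Of the 4577 genes of 30 to 100 kb, 177 (3.87%) were called lower and 638 (13.9%) higher, with a median of 1.09. Long genes hold more peaks, so their ratios vary less by counting alone.

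In 425 genes over 300 kb with a known strand, the share ratio was lower at the end of the gene than at its start. With each span cut into 10 equal segments, it was 1.04 (1.01 to 1.07) in segment 1, 0.993 (0.964 to 1.02) in segment 5 and 0.937 (0.909 to 0.966) in segment 10. The peak numbers of v1 and v3 were 9314 and 7948 in segment 1, and 9726 and 7496 in segment 10. By number, v1 had more peaks at the far end than at the start, and v3 had fewer.

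The genes with the lowest ratios had spans of 193 to 636 kb, and in those followed by segment v3 held a lower share along the whole length. Among the 3271 genes with at least 60 peaks, Dach1, which encodes a dachshund-family transcription factor, had 149 peaks in v1 and 28 in v3 (share ratio 0.229, 0.147 to 0.344). Fstl5, a follistatin-like secreted protein gene, had 254 and 58 (0.278, 0.205 to 0.371). The others were Cnbd1 (58 and 13), Tll1, a tolloid-like metalloprotease gene (94 and 23), and Dnah7b, an axonemal dynein gene (53 and 13). In Dach1, Fstl5 and Tll1 the share was lower in v3 in 10 of 10 segments of the gene. Of the v1 peaks in Fstl5 without a v3 counterpart, 166 of 206 met a v2 peak, and v2 had 250 peaks in its window. In Dach1 97 of 121 did, and v2 had 152. In Tll1 41 of 69 did, and v2 had 84. Over all v1 peaks without a v3 counterpart, 77.9% met v2.

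The genes with the highest ratios had spans of 98.3 to 150 kb. Ddx10, a DEAD-box RNA helicase gene, had 24 peaks in v1 and 61 in v3 (3.09, 1.90 to 5.18). Wnk1, a kinase gene of ion transport control, had 26 and 64 (2.99, 1.87 to 4.92). Ago3, an Argonaute gene of small RNA silencing, had 21 and 49, Ankhd1, an ankyrin repeat and KH domain gene, 29 and 63, and Usp9x, a deubiquitinase gene on X, 29 and 61. These genes are extremes as well, with the same limit on their ratios. In Ddx10 and Wnk1 the share was higher in v3 in 10 of 10 segments, again of the peaks by which they were picked. In segment 9 of Ddx10 the numbers were equal, 2 and 2. Of the v3 peaks in the span, 16 of 57 and 20 of 61 met a v1 peak. The v1 peaks were mostly retained: 19 of 21 in Ddx10 and 24 of 24 in Wnk1 met v3. For v2 the windows held 65 and 56 peaks.

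**Figure D4:**
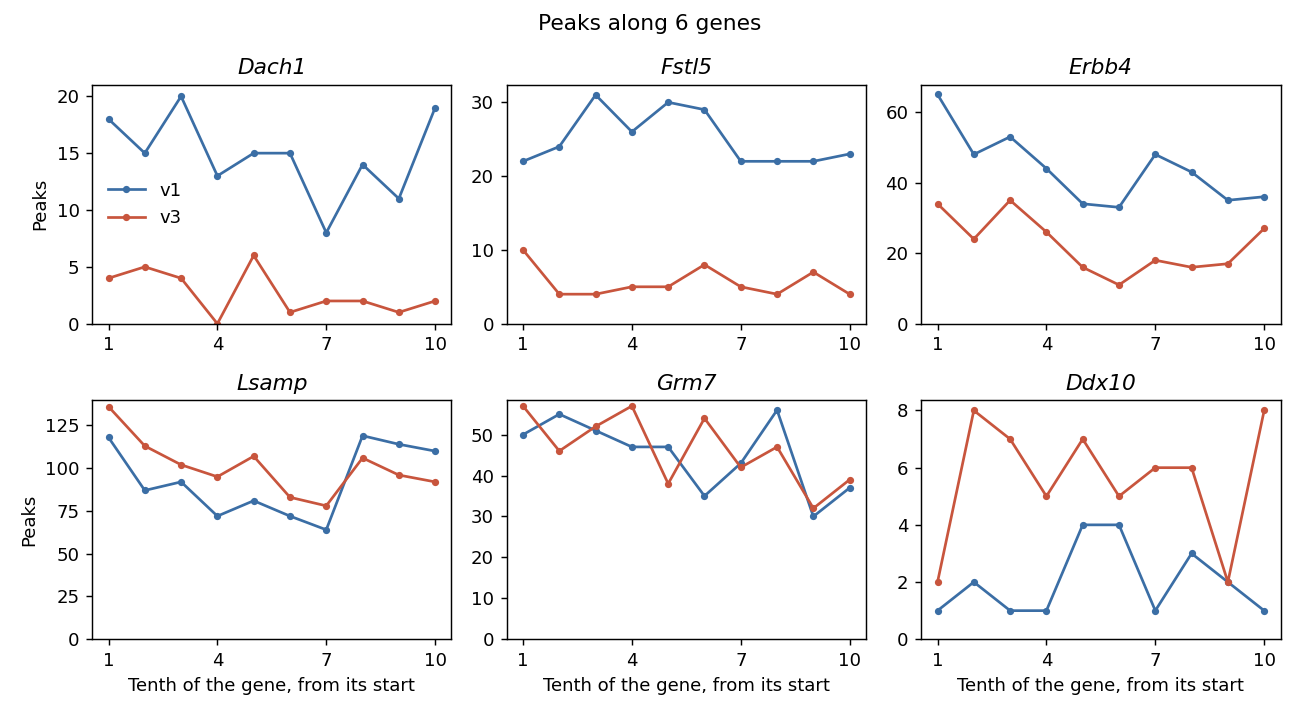
Number of peaks (y axis, from 0, scaled per gene) in each of 10 equal segments of 6 genes from start to end (x axis) in v1 and v3. Dach1, Fstl5 and Erbb4 have fewer v3 peaks in every segment, Ddx10 has at least as many v3 as v1 peaks in every segment, and Lsamp and Grm7 have similar numbers.

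The inhibitory neuron list had a pooled ratio well below 1, and long genes held most of its peaks. For each list the peaks in the merged windows of all members were pooled without a minimum, so members with more peaks weigh more. Members with at least 10 peaks were set beside the background of 13.3% higher and 6.13% lower. The inhibitory neuron list of 12 genes held 847 peaks in v1 and 470 in v3 (pooled share ratio 0.675, 0.602 to 0.756), with 3 of its 10 members with at least 10 peaks called lower and 0 higher. Erbb4, the neuregulin receptor gene of interneurons, had 441 and 224 peaks, Adarb2, an RNA-editing family gene of caudal interneurons, 266 and 134, and Gad2, a GABA synthesis gene, 42 and 22. The median member stood at 1.05, beside 1.06 over all genes, and at 0.627 when only members with at least 30 peaks were taken. Further members, Gad1 (36 and 30) and Lhx6, an interneuron transcription factor gene (14 and 14), stood at 1.01 and 1.22. Without Erbb4 the pooled ratio was 0.737, and Adarb2 then held 266 of 406 v1 peaks and 134 of 246 v3 peaks. The ratio without both genes was not computed.

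Of cerebellar neuron genes, Car8, a Purkinje cell carbonic anhydrase-related gene, had 35 peaks in v1 and 13 in v3 (0.452, 0.219 to 0.875), and Gabra6 had 8 and 2. The transcription factor genes Etv1 (59 and 51), Zic1 (14 and 10) and Zic4 (17 and 14) had ratios from 0.869 to 1.05. Striatal projection neuron genes had a pooled ratio of 0.865 (0.784 to 0.955) and 3 of 11 members called lower, with Rarb, a retinoic acid receptor gene, at 201 and 94 peaks (0.569, 0.440 to 0.730) and Foxp1, a forkhead gene, at 353 and 280 (0.965). Tac1 and Drd1, whose promoters are shown above, each had 8 and 4 peaks. Excitatory neuron genes had 1.11 (0.999 to 1.23), with 1 of 12 members called in each direction. Among them Rorb, a layer 4 nuclear receptor gene, had 61 and 80 peaks (1.60, 1.13 to 2.26), while Neurod6, a cortical bHLH gene, had 8 and 4 (0.608). By covered length Rorb stood at 1.38, under the call, and Neurod6 at 1.15, on the other side of 1.

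Glial and vascular lists stood on both sides of 1. Endothelial genes had 188 peaks in v1 and 225 in v3 (1.46, 1.19 to 1.78). Of the 8 members with at least 10 peaks, 3 were called higher: Flt1, a VEGF receptor gene (19 and 37), Pecam1, an adhesion gene (14 and 22), and Erg, an ETS transcription factor gene (45 and 64). Kdr (15 and 13) and Tek (22 and 17), 2 other receptor genes of endothelium, stood at 1.05 and 0.940. Microglial genes had 147 and 151 peaks (1.25, 0.989 to 1.58), with 8 of 13 members called higher and 0 lower, and a median of 1.70. The members called higher hold few peaks: Cx3cr1, the fractalkine receptor gene, had 12 and 18 and Tmem119 6 and 9. The minimum of 10 is on the sum of both lists. Ctss (3 and 7) and Aif1 (4 and 6) just reached it with more peaks in v3. Trem2 (5 and 4, ratio 0.973) fell below it. P2ry12, the purinergic receptor gene with the most peaks of the list, had 36 and 24 (0.811). The windows of C1qa, C1qb and C1qc overlap and share peaks. With only peaks wider than 500 bp the median of the microglial list was 0.899, and with the gene span alone it was 1.06.

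Oligodendrocyte precursor genes had a pooled ratio of 0.902 (0.774 to 1.05), and 1.15 (0.945 to 1.39) without Lhfpl3, which had 178 peaks in v1 and 87 in v3. Vcan, the versican gene, had 36 and 17, and Gpr17, a receptor gene of committed precursors, 8 and 10, a ratio of 1.52 that was 0.677 with only peaks wider than 500 bp. Astrocyte genes had 0.980 (0.833 to 1.15), with no member past 1.5-fold. Gli3, a hedgehog pathway transcription factor gene, had 112 and 65 peaks, and without it the list stood at 1.11 (0.920 to 1.35). Aldh1l1, a folate enzyme gene, had 16 and 19. Oligodendrocyte genes had 0.951 (0.780 to 1.16), with the myelin gene Mbp at 63 and 56 peaks and Opalin, another myelin gene, at 10 and 5, a ratio of 0.608 that was 1.06 with 20 kb flanks. Mural and fibroblast genes had 0.899 (0.692 to 1.17) and ependymal and choroid plexus genes 0.842 (0.666 to 1.06). In the latter list Dnah5 had 83 and 37 peaks, and without it the list stood at 1.09 (0.809 to 1.45). In the same list Folr1, the choroid plexus folate receptor gene, had 2 and 9. For these lists the interval held 1.

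Of the lists for other tissues, erythroid genes had a pooled ratio of 0.720 (0.529 to 0.973), in which Ank1, the erythroid ankyrin gene, also expressed in brain, held 90 of 120 v1 peaks and 52 of 71 v3 peaks. Slc4a1, the red cell anion exchanger gene, had 9 and 1, and Tal1 had 4 and 6 (1.82, 0.433 to 8.79). Without Ank1 the pooled ratio was 0.770 with an interval that held 1 (0.410 to 1.41). Skeletal muscle genes had 1.37 (1.02 to 1.86), with Myh1 at 7 and 13 peaks, Myh4 at 4 and 9 and Ryr1, the calcium release channel gene, at 30 and 34. Ckm, the muscle creatine kinase gene, had 9 and 5 (0.676, 0.178 to 2.25) and Myog, the myogenin gene, 8 and 6 (0.912, 0.261 to 3). Without Ryr1 the pooled ratio was 1.37 with an interval that held 1 (0.938 to 2.01). Liver genes (32 and 35 peaks), lymphocyte genes (44 and 35) and immediate early genes (80 and 75) had intervals that held 1. Immediate early Nr4a1 had 10 and 13 peaks and Fosb 8 and 5.

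Splicing, protein turnover, ribosomal protein, oxidative phosphorylation and Zfp zinc finger families had pooled ratios from 1.07 to 1.22. Over all protein-coding genes, peaks summed by length class had ratios of 1.07 up to 10 kb, 1.10 up to 30 kb and 1.11 up to 100 kb, so ratios near 1.1 are those of genes at large. Splicing factor genes had 577 peaks in each list (1.22, 1.08 to 1.37), with 9 of 43 members called higher and 0 lower. Proteasome subunit genes had 552 and 537 (1.18, 1.05 to 1.33), with 6 of 32 called higher and 2 lower, among them Psme4, a proteasome activator gene, with 56 and 72. Zinc finger genes named Zfp had 4132 and 3742 (1.10, 1.05 to 1.15), with 44 of 218 called higher and 11 lower. Ribosomal protein genes had 315 and 305 (1.18, 1 to 1.38). For ubiquitin-conjugating enzyme genes (1.09, 0.984 to 1.21) and oxidative phosphorylation genes (1.07, 0.946 to 1.20) the interval held 1. At gene starts the counts for these families differed by at most 1 gene. Of the genes with a listed start, a peak lay there in v1 and v3 at 46 and 46 of 46 splicing factor genes, 40 and 40 of 41 proteasome genes, 64 and 64 of 64 oxidative phosphorylation genes and 26 and 26 of 26 ubiquitin-conjugating enzyme genes. For ribosomal protein genes the counts were 62 and 61 of 64, and for Zfp genes 277 and 278 of 305.

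Families of neuronal channels, receptors and adhesion proteins had pooled ratios from 0.861 to 1.13. Classical cadherin genes had 2625 peaks in v1 and 1859 in v3 (0.861, 0.811 to 0.914), with 4 of 23 called lower and 1 higher, although their member with the most peaks, Cdh13, had 397 and 368 (1.13). Semaphorin and plexin genes had 0.911 (0.846 to 0.981), glutamate receptor genes 0.948 (0.908 to 0.990), Eph receptor and ephrin genes 0.941 (0.875 to 1.01) and voltage-gated sodium and calcium channel genes 0.987 (0.937 to 1.04). Potassium channel genes had 1.05 (1.01 to 1.09) and GABA-A receptor genes 1.13 (1.03 to 1.23). In the last family more members were called lower than higher, 4 against 2 of 16, and the median was 0.986. Gabrg3, with 177 and 229 peaks (1.57, 1.29 to 1.93), and Gabra3, with 15 and 25, were the members called higher. Gabrg1 (20 and 9), Gabrd (11 and 6), Gabrr1 (7 and 3) and Gabra6 (8 and 2) were called lower. Of the 15 GABA-A genes with a listed start, 13 had a peak there in v1 and 11 in v3. Synaptic adhesion genes had 10470 and 8686 (1.01, 0.981 to 1.04), with 7 of 35 called lower and 0 higher. Lsamp, the limbic system-associated adhesion gene with a span of 2197 kb, had 932 and 1011 (1.32, 1.21 to 1.44).

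Long neuronal genes stood on both sides of 1. Lsamp, Kcnip4, a potassium channel partner gene (533 and 532 peaks), and Grm7, a metabotropic glutamate receptor gene (454 and 467), had ratios of 1.32, 1.21 and 1.25. Erbb4, Adarb2 and Rarb had ratios from 0.569 to 0.618. Lhfpl3, a long gene of the oligodendrocyte precursor list, had 0.594. In Lsamp the share was higher in v3 in 10 of 10 segments, in Grm7 in 9 and in Kcnip4 in 7. In Erbb4, Adarb2 and Rarb it was lower in 10 of 10.

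**Figure D5:**
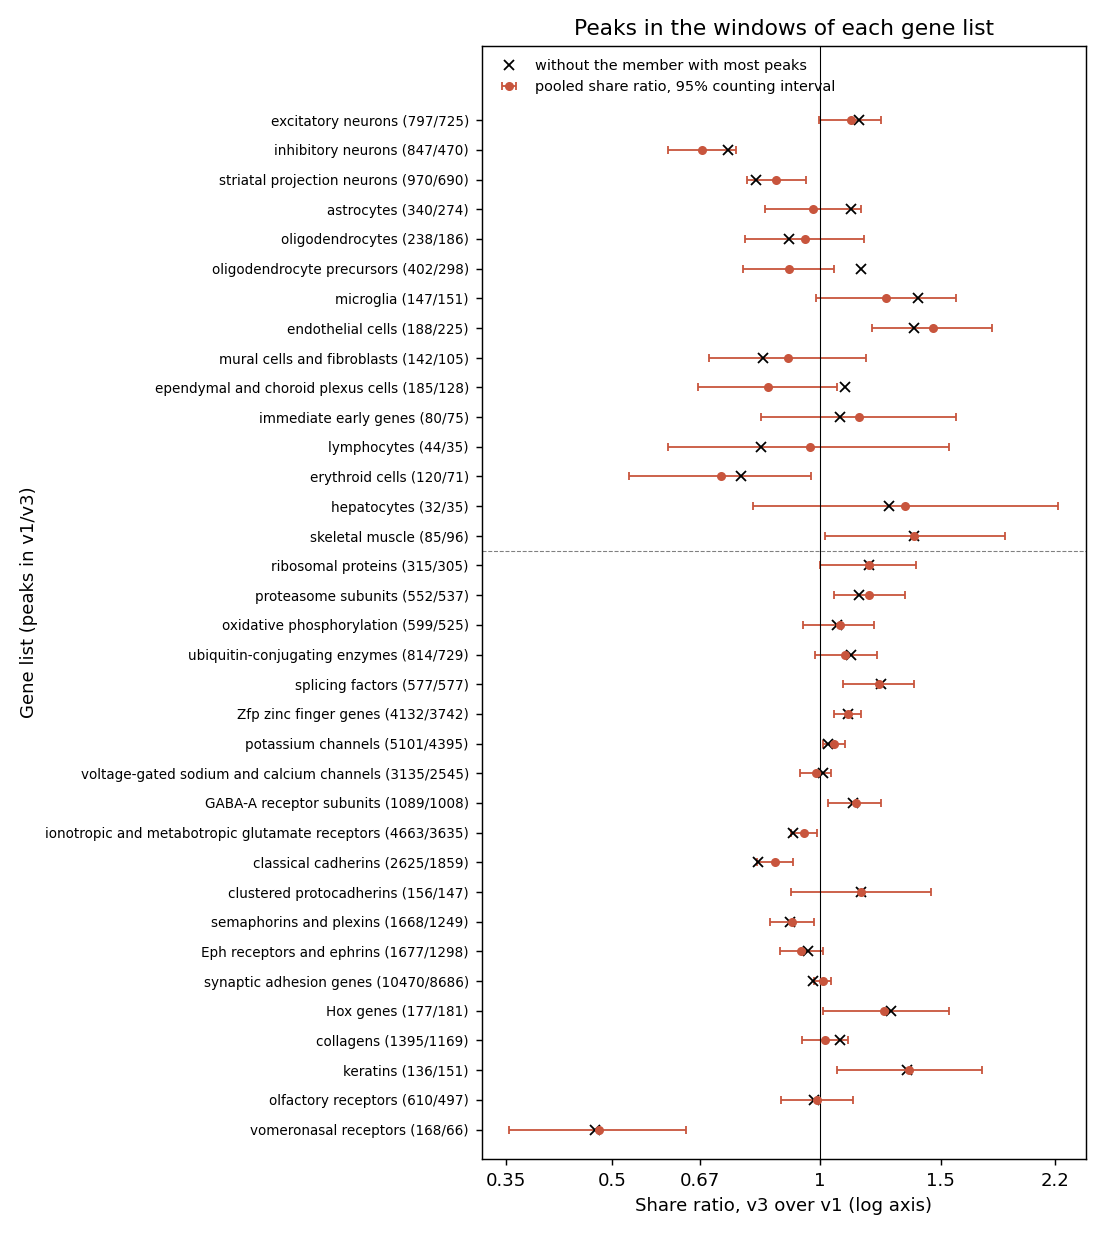
Share ratio of v3 over v1 (x axis, log scale) for the pooled peaks in the windows of 35 gene lists, with the peaks in v1 and v3 in brackets. Circles with bars give the ratio and its 95% counting interval, crosses the ratio without the member with the most peaks; the dashed line divides cell type and tissue lists (above) from families (below).

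Olfactory and vomeronasal receptor genes, which serve the sensory epithelia of the nose, mostly held no peak. Of 1106 olfactory receptor genes, 601 had no peak in either list, and the family had 610 and 497 peaks (0.991, 0.878 to 1.12). A peak lay within 1 kb of a start at 107 of 940 olfactory receptor genes in v1 and 88 in v3, of which 58 were in v1 only and 39 in v3 only. Of 353 vomeronasal receptor genes 259 had no peak, and the family had 168 and 66 peaks (0.478, 0.354 to 0.639), the lowest pooled ratio of the 36 lists. Members of both families have close copies, so how reads were divided among them is uncertain. Of other families whose genes lie in clusters, keratin genes had 136 and 151 peaks (1.35, 1.06 to 1.72), Hox genes 177 and 181 (1.24, 1.01 to 1.54) and clustered protocadherin genes, whose windows overlap heavily, 156 and 147 (1.15, 0.909 to 1.45).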

How the data were processed

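The authors deposited 1 peak list per library with chromosome, start and end of each peak (coordinates in bp only). ArchR, MACS2 and the build mm10 are named, per the submitters' processing notes. The aligner, versions, threshold and any merging of calls are not stated in the sources used here. How peaks were merged can set their width and number, and sequencing depth is unknown.

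Starts were made 1-based. Overlap needed at least 1 bp. Genes came from a RefSeq table of GRCm38.p6 (the assembly of mm10; 49554 genes, 21631 protein-coding), and starts, strands and promoter sequences from its promoter table, which matched 17274 protein-coding genes and none on chromosome 18. The other 4357 protein-coding genes were left out of analyses by start. Python 3.11.15, numpy 2.4.6, pandas 2.3.3 and scipy 1.17.1 were used, and the overlap and ratio code was checked against bedtools and on simulated data. Shares have exact Clopper-Pearson intervals. Share ratios have exact conditional binomial ones. A call is 1.5-fold, for genes with at least 10 peaks and bins with at least 100. Bins count peaks by midpoint.

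The comparison, the 36 lists (16 of cell types, tissues and states, 20 families by symbol) and the genes, bins, peaks and promoters named by rule were chosen with earlier results of these data known. The rule took from each list the member with most peaks, from cell type lists the extremes in ratio, and over all genes with at least 60 peaks the 5 extremes each way. Other named members, and the genes followed by segments, were chosen after their values were seen. Printed promoters were limited to stretches outside annotated genes after the windows were seen. Promoter, gene-length and bin classes, biotypes and v2 served as descriptions. Some results, the pooled ratio of the cerebellar neuron list among them, are not reported here.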

Additional observations from a re-analysis of the deposited data

How the results depend on the processing

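With 1 library per version no replicate could be left out. No paired analysis was possible because each group has 1 sample and no test was run. A reciprocal overlap of 50% lowered the share of v1 peaks met by v3 from 70.7% to 43.2% and that of v3 peaks met by v1 from 75.2% to 52.5%, and the shares of unmatched v1 and v3 peaks met by v2 to 61.2% and 35.8%. Thinning v1 by a random draw to 512023 peaks lowered the second share to 64.1%. The first share was 70.7% again, as a random draw from v1 must give apart from sampling, so it is no check.

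With only peaks wider than 500 bp, the 2 shares were 77.7% and 62.3%, which reverses their order, and the shared bases were 41.4% of the union against 48.2%. The median widths became 938 bp in v1 and 1112 bp in v3, the share of v3 peaks joining several v1 peaks 7.11%, the shares in gene spans 72.0% in both lists, and the genes with a start peak 70.0% in v1 and 72.9% in v3. Genes called higher in v3 numbered 1194 and lower 820 of 9331, with the median gene at 0.988 (log2 -0.02) against 1.06 (log2 0.09), and bins called lower 115 and higher 69 of 2006. Among peaks met by the other list the median v3 width was 876 bp. The joining share was 10.6% when 50% of each v1 peak had to be covered. Protein-coding spans alone held 61.1% of v1 and 63.9% of v3 peaks, and 73.1% and 73.0% of genes had a peak within 250 bp of a start. With at least 30 peaks, 568 genes were called higher and 251 lower of 6282. With a peak over the window itself, the median CpG counts were 20 in both lists, 4 in v1 only and 4 in v3 only.

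The median ratio of the microglial list was 0.899 among wider peaks, and that of the hepatocyte list 0.912 with 20 kb flanks against 1.56. Gpr17 had 0.677 among wider peaks. Neurod6 had 1.22 with the gene span alone, 1.15 by covered length and 1.13 among wider peaks, and Opalin 1.06 with 20 kb flanks. Of the other results for list medians 160 stayed on their side of 1.5-fold and 11 did not, and for named genes 251 and 37. With only wider peaks Ctss, Folr1 and Myh4 had no v1 peak and so no ratio.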

Other observations

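Peaks near the far ends of genes had a slightly larger share in v3, as at gene starts. Of the peaks outside chromosome 18, 2.43% (2.39 to 2.47) in v1 and 2.74% (2.69 to 2.79) in v3 lay within 1 kb of a gene end. Over 1 kb from any start the shares were 2.19% and 2.45%. These distances also ran from the nearest edge of a peak, without adjustment for the wider peaks of v3.

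Collagen genes, which encode matrix proteins, had 1395 peaks in v1 and 1169 in v3, a share ratio of 1.02 (0.942 to 1.10). Of the 43 members with at least 10 peaks, 5 were at least 1.5-fold higher and 5 at least 1.5-fold lower. Col25a1, a membrane collagen gene of neurons, had 169 and 88 peaks (0.633, 0.484 to 0.824), and the family without it had 1.07 (0.987 to 1.16).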
